A study of Mus musculus with 14 samples.

Results

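Endocannabinoids are lipids made on demand from membrane phospholipids, and 10 genes that make them, break them down or encode their receptors were followed here through the mouse estrous cycle and across genotypes. The 10 genes are Napepld, Abhd4, Gde1, Dagla and Daglb on the synthesis side, Faah, Mgll and Abhd6 on the breakdown side, and the receptors Cnr1 and Cnr2. They were taken by symbol from a table of 31274 gene symbols, and all 10 were found. Napepld entered the set for its genotype difference at estrus, so its values there, and in any comparison built on them, are a description with no test.

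The measurements are RNA sequencing of whole uteri from intact, untreated FVB/N mice aged 2 months. Labelled HIF2A cKO at estrus (3 libraries), WT at estrus (3), labelled HIF2A cKO at diestrus (4) and WT at diestrus (4) were the 4 groups. HIF2A, encoded by Epas1, is the oxygen-regulated alpha subunit of a transcription factor, and cKO is read as a conditional knockout. The labels used here name neither the Cre line and its promoter nor the deleted exons, and they do not say whether a library is 1 mouse or a pool. Each level is in FPKM, fragments scaled by transcript length and by library total, which allows levels of different genes to be set side by side.

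Anandamide and other N-acylethanolamines can be released from N-acylphosphatidylethanolamine in 1 step by the phospholipase that Napepld encodes. A second route runs through Abhd4, which strips the acyl chains, and then Gde1, a phosphodiesterase that frees the N-acylethanolamine. The other main endocannabinoid, 2-arachidonoylglycerol, is made by the diacylglycerol lipases encoded by Dagla and Daglb. Faah hydrolyses anandamide, while Mgll and Abhd6 hydrolyse 2-arachidonoylglycerol, and Cnr1 and Cnr2 encode the G protein-coupled cannabinoid receptors. In the mouse uterus, anandamide signalling is known for its part in embryo transport and implantation.

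Epas1, the gene of the labelled knockout, was not reduced where the label says HIF2A cKO. It stood at 45.7, 39.9 and 38.0 FPKM in labelled HIF2A cKO uteri at estrus, against 34.2, 31.2 and 33.3 FPKM in WT uteri at estrus. At diestrus it stood at 37.3, 35.1, 45.4 and 40.1 FPKM in labelled HIF2A cKO uteri, against 31.9, 32.7, 43.5 and 31.2 FPKM in WT uteri. The exact two-sided permutation test of the difference in mean FPKM gave p = 0.1 at estrus, the smallest that 3 against 3 allows, and p = 0.257 at diestrus. A deletion of some exons need not lower the value of the whole gene, so the genotype of each library rests on its label, and every genotype direction below does too.

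The libraries held the main cell types of a whole uterus, and none of the markers listed for epithelium, stroma, myometrium or endothelium was at 0. FPKM summed to between 437879 and 497688 per library, and the number of reads behind it is unknown. The libraries spread more at diestrus: the median over genes of the SD of log2(FPKM + 1) was 0.166 in labelled HIF2A cKO and 0.148 in WT at diestrus, but 0.0758 in labelled HIF2A cKO and 0.0842 in WT at estrus. HIF2A cKO diestrus replicate 3 stood with the WT diestrus libraries on the second principal component (13.2, against 12.4 to 41.5 for the WT diestrus libraries and -37.7 to -20.3 for the other HIF2A cKO diestrus libraries). Values without it are given beside the calls described below that change when it is left out.

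HIF2A binds DNA at hypoxia response elements, whose core is read here as ACGTG or GCGTG on either strand. Promoter windows of 300 bases, from 250 before to 50 after a start site, were found in RefSeq (GRCm38.p6) for 9 of the 10 genes, 15 windows in all. Dagla had none. The windows of Napepld, of the first Abhd4 start and of Gde1 are printed because these genes of 1 biochemical branch differ in what they show below: a genotype difference, a cycle change, and neither. Capitals mark the cores, and all are written 5′ to 3′ on the strand of the gene. Napepld lies on the minus strand in chr5:21701573-21701872, Abhd4 on the plus strand in chr14:54253879-54254178, and Gde1 on the minus strand in chr7:118705689-118705988.
Napepld: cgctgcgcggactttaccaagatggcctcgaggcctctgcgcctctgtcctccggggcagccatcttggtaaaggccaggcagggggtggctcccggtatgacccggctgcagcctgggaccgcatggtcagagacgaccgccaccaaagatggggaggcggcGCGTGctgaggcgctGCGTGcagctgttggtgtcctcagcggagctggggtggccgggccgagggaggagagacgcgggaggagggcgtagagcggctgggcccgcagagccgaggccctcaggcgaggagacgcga
Abhd4: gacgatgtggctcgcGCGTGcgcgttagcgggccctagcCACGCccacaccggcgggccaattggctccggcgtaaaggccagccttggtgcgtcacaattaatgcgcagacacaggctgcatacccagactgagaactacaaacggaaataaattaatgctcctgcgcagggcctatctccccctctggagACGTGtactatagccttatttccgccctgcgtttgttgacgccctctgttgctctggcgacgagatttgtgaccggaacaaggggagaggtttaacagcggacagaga
Gde1: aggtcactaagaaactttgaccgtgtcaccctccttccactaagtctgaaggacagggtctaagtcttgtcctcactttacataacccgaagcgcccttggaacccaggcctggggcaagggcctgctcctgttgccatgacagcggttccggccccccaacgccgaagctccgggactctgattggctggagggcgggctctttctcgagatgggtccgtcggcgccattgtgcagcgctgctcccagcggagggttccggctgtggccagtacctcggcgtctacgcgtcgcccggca
The Napepld window held 2 cores, at positions -87 and -72 from the start site. The Abhd4 window held 3, at -235, -211 and -58, and the window at the other Abhd4 start held 0, as did that of Gde1. The Mgll windows held 4 and 7 cores, those of Cnr1 1, 3 and 1, and that of Faah 1, while those of Daglb, Abhd6 and Cnr2 held 0. Each strand is counted, so CACGTG counts as 2 cores, as in the Mgll window with 4 and the Cnr1 window with 3. Over all 32851 windows in the table, 43.8% held at least 1 core, 20.6% at least 2, 8.93% at least 3 and 0.694% at least 6. A single match is common, and a match is not a binding site.

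Abhd4 was the most abundant of the 10 transcripts at estrus, and Gde1 and Mgll followed it. At estrus Abhd4 made up 56.3% of the summed FPKM of the 10 genes in labelled HIF2A cKO and 51.6% in WT. At diestrus Abhd4 and Gde1 stood close together, with 27.9% and 33.3% of the sum in labelled HIF2A cKO and 33.1% and 30.2% in WT. Their values overlapped between genes within each diestrus group. Napepld ranked 7th at estrus and 5th at diestrus in labelled HIF2A cKO, and 4th in WT in both stages. Napepld, Faah, Daglb and Abhd6 had group means between 5.84 and 12.3 FPKM, Dagla between 2.90 and 3.74 FPKM, and both receptors stayed below 1 FPKM in every library.

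**Figure D1:**
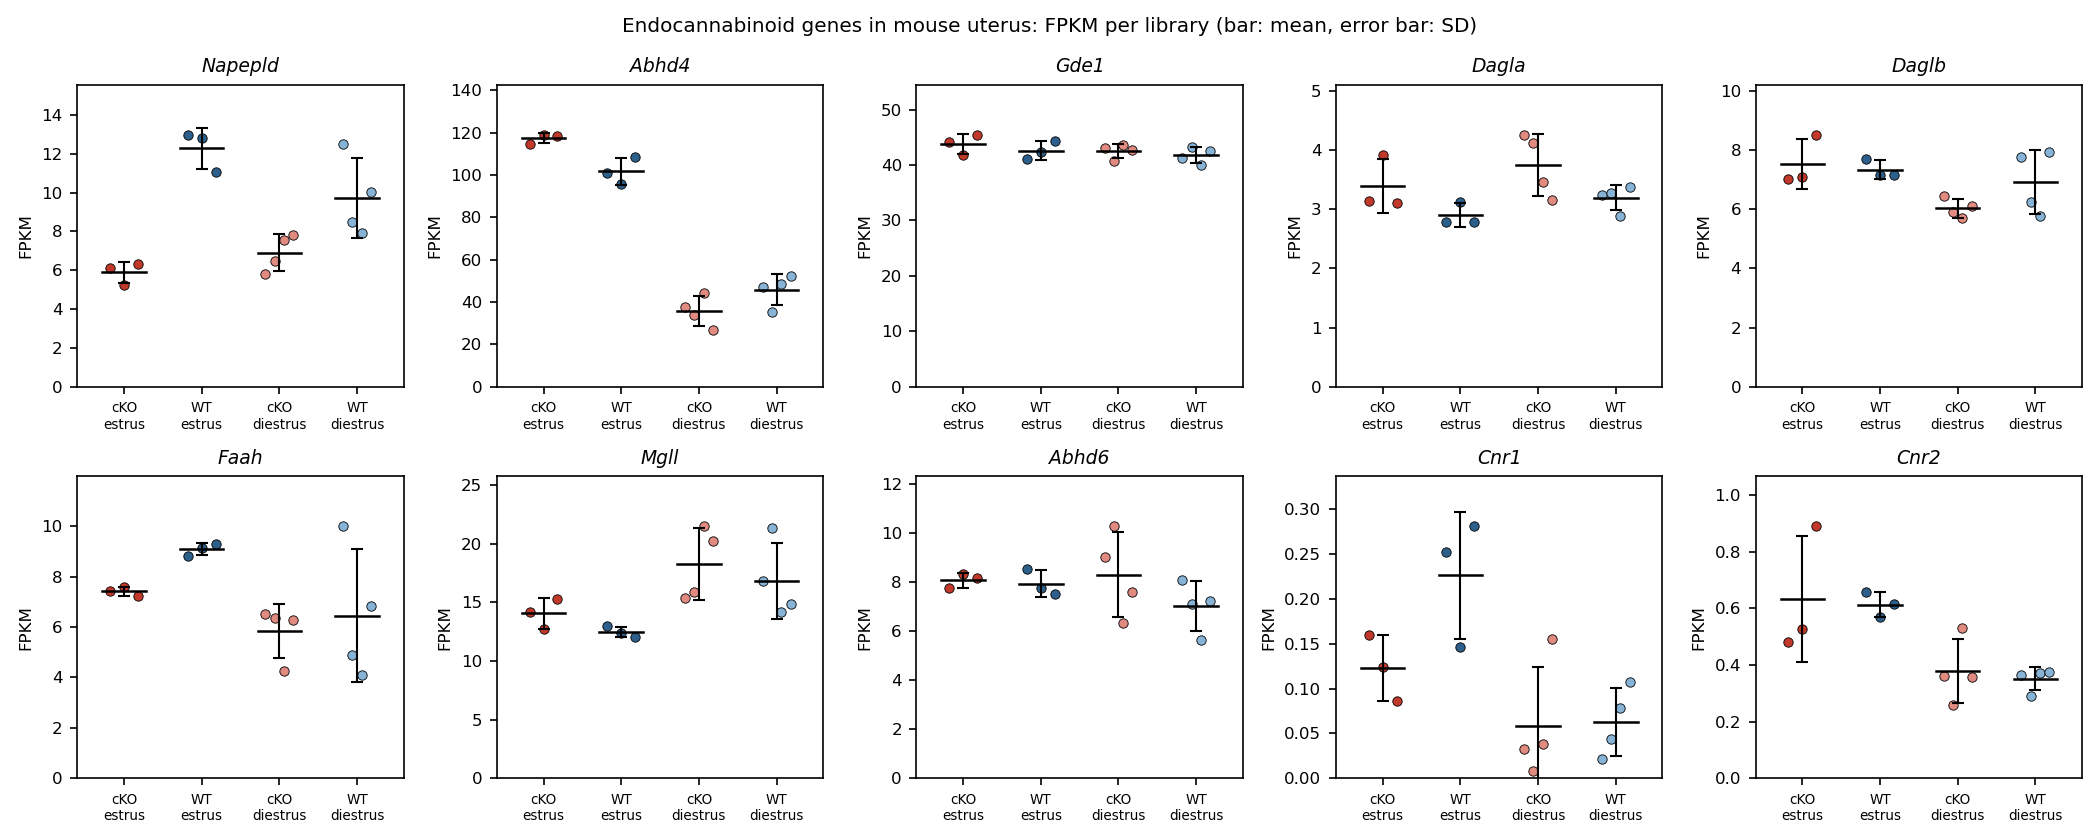
Levels of the 10 genes, in FPKM on linear axes that start at 0, with 1 panel per gene and 1 point per library. Lines and bars are group means and SD (n = 3 at estrus, n = 4 at diestrus), and the lower bar of Cnr1 in HIF2A cKO at diestrus ends at the axis. Napepld sits at 5.26 to 6.31 FPKM in HIF2A cKO and 11.05 to 12.97 FPKM in WT at estrus, and Abhd4 is above 95 FPKM in every estrus library and below 53 FPKM in every diestrus library.

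Napepld (chr5:21662901-21701396, minus strand, mm10) was lower in labelled HIF2A cKO uteri in both stages. At estrus, where the gene was picked, it had 6.10, 5.26 and 6.31 FPKM in labelled HIF2A cKO, against 12.97, 12.8 and 11.05 FPKM in WT. The groups lay far apart, and the labelled HIF2A cKO mean of 5.89 ± 0.556 FPKM was 48.0% of the WT mean of 12.3 ± 1.06 FPKM (SD, n = 3 each). On the scale of log2(FPKM + 1), which understates the change of low genes, that is a difference of -0.95. Of all 14278 genes tested, 26.4% had genotypes that did not overlap at estrus, and nothing is read from this for a gene picked on the same contrast.

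The diestrus libraries did not enter that choice and were tested. At diestrus Napepld had 5.81, 6.47, 7.55 and 7.81 FPKM in labelled HIF2A cKO, against 12.5, 8.47, 7.89 and 10.03 FPKM in WT. All 4 labelled HIF2A cKO libraries were below all 4 WT libraries, with the nearest pair 7.81 and 7.89 FPKM, and 15.8% of all genes tested had genotypes that did not overlap. The mean was 6.91 ± 0.934 FPKM in labelled HIF2A cKO, 71.0% of the 9.73 ± 2.07 FPKM in WT (SD, n = 4 each). The limma difference was -0.43 on the log2 scale (SE 0.127, 95% interval -0.70 to -0.15, Benjamini-Hochberg adjusted p = 0.0298 over all genes). Napepld was the only gene of the 10 called in this comparison, where 23.9% of all genes tested were called, so a single call among the 8 genes that passed the filter on low values is no more than the background. Called here means an adjusted p under 0.05, and the filter asked for 1 FPKM or more in 3 or more of the libraries.

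The Napepld call at diestrus is weakly held. The adjusted p was 0.105 with the diestrus libraries alone and 0.109 with those libraries and the replicate number as a block. It was 0.0502 with no filter on low values. Leaving out WT diestrus replicate 1 gave -0.31 (adjusted p = 0.0759), and the limma call was also lost without WT diestrus replicate 4 (0.0707), HIF2A cKO diestrus replicate 1 (0.0924) or HIF2A cKO diestrus replicate 2 (0.0884). Without HIF2A cKO diestrus replicate 3, the library that stood apart, the limma difference was -0.47 with an adjusted p of 0.0208, and it stayed below 0 in every alternative tried (-0.71 to -0.31).

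Foxa2, a transcription factor of uterine glands, was also lower in labelled HIF2A cKO. It had 0.484, 0.582 and 0.920 FPKM in labelled HIF2A cKO at estrus against 3.67, 3.85 and 3.61 FPKM in WT at estrus, a limma log2 difference of -1.51 (adjusted p = 0.293, but 0.00434 with the estrus libraries alone and 0.0116 without HIF2A cKO diestrus replicate 3). At diestrus it had 0.698, 1.44, 6.89 and 2.11 FPKM in labelled HIF2A cKO against 9.88, 9.12, 9.97 and 6.28 FPKM in WT, a limma log2 difference of -1.61 (adjusted p = 0.00852, or 0.0617 with the diestrus libraries alone). The groups did not overlap at estrus, and they overlapped at diestrus through HIF2A cKO diestrus replicate 3, without which the limma difference was -2.05 (adjusted p = 8.97e-05). Of the 7 epithelial markers Foxa2 was the only one called at diestrus. The summed level of the 7 ran from 942 to 1060 FPKM in labelled HIF2A cKO and 775 to 940 FPKM in WT at estrus, and from 372 to 748 FPKM in labelled HIF2A cKO and 319 to 539 FPKM in WT at diestrus, with none of them at 0.

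Some markers of other cells were called at diestrus, where 23.9% of all genes tested were called. Of the mast cell markers 2 of 4, and of the stromal markers 2 of 5, were called lower in labelled HIF2A cKO. So were 1 of 3 mesothelial, 1 of 2 ovary and 1 of 2 nerve and glia markers tested. Of the 4 endothelial markers, Kdr was called higher (limma log2 difference 0.53, adjusted p = 0.00798). Tek (-0.54, limma adjusted p = 0.0615), Cdh5 (-0.20, 0.635) and Pecam1 (-0.01, 0.981) leaned lower without a call. Cpa3, a mast cell protease, averaged 10.2 FPKM in labelled HIF2A cKO and 19.5 FPKM in WT at estrus, and 6.08 FPKM in labelled HIF2A cKO and 11.7 FPKM in WT at diestrus. Its genotypes did not overlap in either stage, as for Napepld. Over all genes tested, 26.4% did not overlap at estrus and 15.8% at diestrus. The limma log2 difference of Cpa3 at diestrus was -0.85 (adjusted p = 0.00707). The summed mast cell markers ran from 41.0 to 50.2 FPKM in labelled HIF2A cKO and 69.4 to 92.2 FPKM in WT at estrus, and from 24.4 to 43.1 FPKM in labelled HIF2A cKO and 41.2 to 54.0 FPKM in WT at diestrus. Other markers called lower were Mcpt4 (-0.75, limma adjusted p = 0.0145) of mast cells, Pdgfra (-0.49, 0.0295) and Hoxa11 (-0.75, 0.0408) of stroma, Wt1 (-0.64, 0.0102) of mesothelium and Inha (-0.45, 0.0406) of ovary. In whole uterus, fewer cells of a type and less RNA per cell cannot be told apart, and the part of these cells in the Napepld difference was not tested.

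Across the cycle the Napepld values are a description, since they include the estrus libraries. Estrus minus diestrus was -0.19 on the log2 scale in labelled HIF2A cKO, 0.32 in WT and 0.06 averaged over the genotypes, and the stages overlapped in both genotypes. In the averaged comparison 71.1% of all genes tested were called. Of the other 7 genes above the filter, 4 were called there: Abhd4, Faah and Daglb were higher at estrus and Mgll was lower. The averaged Daglb call did not hold without HIF2A cKO diestrus replicate 3 (limma adjusted p = 0.0637).

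Abhd4 (chr14:54254188-54270637, plus strand), the acyl-removing enzyme of the second anandamide route, rose at estrus in both genotypes. In labelled HIF2A cKO it had 115, 119 and 118 FPKM at estrus, against 37.5, 34.0, 44.2 and 27.0 FPKM at diestrus. In WT it had 101, 95.6 and 108 FPKM at estrus, against 47.0, 35.3, 48.5 and 52.2 FPKM at diestrus. The stages did not overlap in either genotype, as was so for 63.1% of all genes tested in labelled HIF2A cKO and 61.1% in WT. The estrus mean was 3.29 times the diestrus mean in labelled HIF2A cKO and 2.22 times in WT.

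The limma log2 difference for Abhd4 was 1.71 in labelled HIF2A cKO (SE 0.148, 95% interval 1.39 to 2.03, adjusted p = 1.22e-06) and 1.147 in WT (SE 0.148, 0.83 to 1.47, adjusted p = 4.50e-05). Both calls held in all 29 alternatives. Cycle changes were the rule in these uteri: 62.0% of all genes tested were called in labelled HIF2A cKO and 57.2% in WT. The difference between the genotypes in the cycle change of Abhd4 was 0.56 (SE 0.210, 95% interval 0.11 to 1.02), but its limma adjusted p was 0.214, and 0.0350% of all genes tested (5) were called in that comparison. Without HIF2A cKO diestrus replicate 3 it was 0.67 with an adjusted p of 0.0488.

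Set between genotypes, Abhd4 leaned in opposite directions in the 2 stages, and neither difference was called. At estrus the labelled HIF2A cKO mean of 117 ± 2.36 FPKM was 115% of the WT mean of 102 ± 6.39 FPKM (SD, n = 3 each), with no overlap and a limma log2 difference of 0.21 (adjusted p = 0.869). At diestrus the labelled HIF2A cKO mean of 35.6 ± 7.14 FPKM was 77.9% of the WT mean of 45.8 ± 7.31 FPKM (SD, n = 4 each), with overlap and a limma log2 difference of -0.36 (95% interval -0.66 to -0.06, adjusted p = 0.0736). With the replicate number as a block in the fit of all libraries, the limma adjusted p at diestrus was 0.0499, and without HIF2A cKO diestrus replicate 3 the difference was -0.47 with an adjusted p of 0.0157.

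Gde1 (chr7:118688545-118705778, minus strand), the step after Abhd4, had nearly the same level in every library. It ran from 41.9 to 45.4 FPKM in labelled HIF2A cKO and 41.1 to 44.4 FPKM in WT at estrus, and from 40.7 to 43.7 FPKM in labelled HIF2A cKO and 40.1 to 43.3 FPKM in WT at diestrus. All group means lay between 41.8 and 43.8 FPKM. The limma intervals were narrow: -0.08 to 0.13 for labelled HIF2A cKO minus WT at diestrus, -0.08 to 0.16 at estrus, and -0.05 to 0.11 for estrus minus diestrus averaged over the genotypes. The last of these was 0.03 as deposited (limma adjusted p = 0.418) and passed the threshold with median-of-ratios scaling (0.11, adjusted p = 0.0225) or quantile normalization (0.10, 0.0308).

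The diacylglycerol lipases were low and moved little. Dagla (chr19:10245265-10304877, minus strand) had 3.14, 3.91 and 3.11 FPKM in labelled HIF2A cKO and 2.79, 3.13 and 2.78 FPKM in WT at estrus. At diestrus it had 4.26, 4.11, 3.46 and 3.15 FPKM in labelled HIF2A cKO and 3.24, 3.27, 2.89 and 3.38 FPKM in WT. The labelled HIF2A cKO means were about 117% of the WT means in both stages (limma log2 difference 0.17 in each), the groups overlapped, and the adjusted p was 0.820 at estrus and 0.181 at diestrus.

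Daglb (chr5:143464584-143505942, plus strand) was called higher at estrus in labelled HIF2A cKO. In labelled HIF2A cKO it had 7.03, 7.08 and 8.52 FPKM at estrus and 6.44, 5.92, 5.69 and 6.11 FPKM at diestrus, with no overlap (limma log2 difference 0.28, SE 0.102, adjusted p = 0.0316). In WT it had 7.70, 7.16 and 7.17 FPKM at estrus and 7.78, 6.26, 5.76 and 7.93 FPKM at diestrus, and the stages overlapped (0.08, adjusted p = 0.507). The difference between the genotypes in this change was not called (0.19, limma adjusted p = 0.502). The limma call in labelled HIF2A cKO was lost without HIF2A cKO estrus replicate 4 (0.19, adjusted p = 0.154), without HIF2A cKO diestrus replicate 2 (0.0613) or without HIF2A cKO diestrus replicate 3 (0.0635). Daglb shares 2309 of its 9567 exonic bases with Rac1 on the opposite strand, and since the counting is not stated to use strand, reads of the 2 genes cannot be told apart there.

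Faah (chr4:115967145-116017926, minus strand), the anandamide hydrolase, was somewhat lower in labelled HIF2A cKO at estrus without passing the test. At estrus it had 7.42, 7.57 and 7.24 FPKM in labelled HIF2A cKO, against 8.82, 9.14 and 9.29 FPKM in WT. At diestrus it had 6.51, 6.35, 4.24 and 6.27 FPKM in labelled HIF2A cKO, against 9.99, 4.90, 4.09 and 6.83 FPKM in WT. The groups were apart at estrus and overlapped widely at diestrus.

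The labelled HIF2A cKO mean of Faah at estrus, 7.41 ± 0.164 FPKM, was 81.6% of the WT mean of 9.08 ± 0.238 FPKM (SD, n = 3 each). The limma log2 difference was -0.26 (95% interval -0.75 to 0.22, adjusted p = 0.892), where 0.105% of all genes tested (15) were called and 26.4% had groups that did not overlap. In the estrus libraries alone, whose spread is smaller, its limma adjusted p was 0.0538. At diestrus the difference was -0.07 (95% interval -0.50 to 0.35, limma adjusted p = 0.803).

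Averaged over the genotypes, Faah was higher at estrus by 0.41 on the log2 scale (SE 0.148, limma adjusted p = 0.0258). The difference was 0.31 in labelled HIF2A cKO (adjusted p = 0.213) and 0.50 in WT (adjusted p = 0.0572), and in WT the limma call was made without WT diestrus replicate 1 (0.71, adjusted p = 0.00270), the library with the highest value of that group, and without HIF2A cKO diestrus replicate 3 (0.0418). Without both diestrus libraries numbered 3, which held the lowest Faah value of each diestrus group, the averaged difference was 0.26 (adjusted p = 0.0581), and without WT diestrus replicate 2 it was 0.36 (0.0502).

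Mgll (chr6:88724412-88828360, plus strand), the main 2-arachidonoylglycerol hydrolase, fell at estrus. In labelled HIF2A cKO it had 14.2, 12.7 and 15.3 FPKM at estrus, against 15.4, 15.9, 21.5 and 20.3 FPKM at diestrus. In WT it had 12.98, 12.4 and 12.1 FPKM at estrus, against 16.9, 21.4, 14.2 and 14.9 FPKM at diestrus. The stages did not overlap in either genotype, although in labelled HIF2A cKO the nearest values were 15.3 and 15.4 FPKM.

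The limma log2 difference for Mgll was -0.34 in labelled HIF2A cKO (SE 0.139, adjusted p = 0.0460), -0.39 in WT (SE 0.139, adjusted p = 0.0303) and -0.37 averaged over the genotypes (SE 0.0983, adjusted p = 0.00479). The averaged call held in all 27 alternatives that apply to it. The call within labelled HIF2A cKO was lost in 16 of 29 alternatives and that within WT in 7 of 29, with limma adjusted p up to 0.172 and 0.0857. Left out singly, every estrus library but HIF2A cKO estrus replicate 4, WT diestrus replicate 1 and HIF2A cKO diestrus replicates 3 and 4 ended the call in labelled HIF2A cKO (-0.27 and an adjusted p of 0.113 without HIF2A cKO diestrus replicate 3). In WT it ended without any 1 of the WT estrus libraries, WT diestrus replicate 1 or WT diestrus replicate 2.

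Mgll is also a fat cell gene, and the summed level of 4 adipocyte markers varied between libraries. It ran from 1.71 to 4.64 FPKM in labelled HIF2A cKO and 0.447 to 13.4 FPKM in WT at estrus, and from 0.142 to 35.9 FPKM in labelled HIF2A cKO and 0.610 to 5.44 FPKM in WT at diestrus. HIF2A cKO diestrus replicate 4, with 20.3 FPKM of Mgll, held the highest sum. The highest Mgll value, 21.5 FPKM, was in HIF2A cKO diestrus replicate 3, whose Adipoq was 1.43 FPKM against 20.0 FPKM in replicate 4. WT diestrus replicate 2 had the highest sum and the highest Mgll (21.4 FPKM) of its group. WT estrus replicate 1 held the highest sum at estrus, with 12.98 FPKM of Mgll. The part of fat cells in the result was not tested. Without HIF2A cKO diestrus replicate 4 the Mgll difference in labelled HIF2A cKO was -0.29 (limma adjusted p = 0.109). Neither genotype difference in Mgll was called (0.16 at estrus, limma adjusted p = 0.910; 0.11 at diestrus, 0.534).

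Abhd6 (chr14:8002902-8056763, plus strand), a second hydrolase of 2-arachidonoylglycerol, was called in no comparison. It ran from 7.74 to 8.34 FPKM in labelled HIF2A cKO and 7.51 to 8.55 FPKM in WT at estrus, and from 6.32 to 10.3 FPKM in labelled HIF2A cKO and 5.65 to 8.11 FPKM in WT at diestrus. The widest difference was 0.21 on the log2 scale for labelled HIF2A cKO minus WT at diestrus (95% interval -0.06 to 0.48, limma adjusted p = 0.237), which passed without HIF2A cKO diestrus replicate 3 (0.32, adjusted p = 0.0434).

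**Figure D2:**
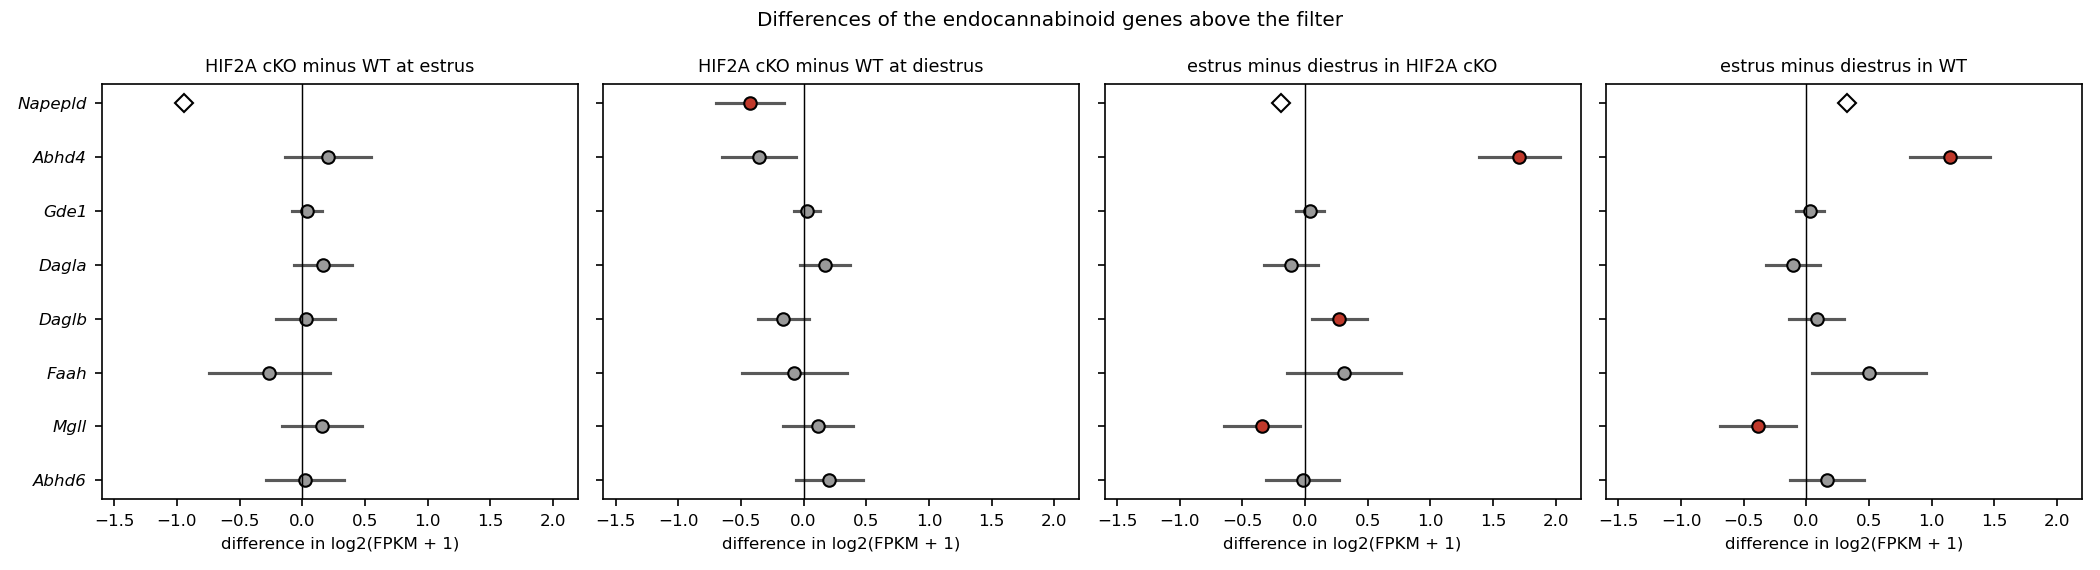
Differences in log2(FPKM + 1) of the 8 genes that passed the filter, with 95% limma intervals, in 4 comparisons. Red marks an adjusted p under 0.05, grey one that is not, and a white diamond without interval a Napepld value given as a description. Abhd4 stands out in both cycle comparisons (1.71 in HIF2A cKO and 1.147 in WT), and Napepld lies left of 0 in both genotype comparisons (-0.95 at estrus and -0.43 at diestrus).

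The cannabinoid receptors were the lowest of the 10 genes in every group. Cnr1 (chr4:33924593-33948831, plus strand), the receptor best known from neurons, had 0.160, 0.124 and 0.0860 FPKM in labelled HIF2A cKO and 0.252, 0.146 and 0.281 FPKM in WT at estrus. At diestrus it ran from 0.00800 to 0.155 FPKM in labelled HIF2A cKO and from 0.0210 to 0.107 FPKM in WT. Cnr2 (chr4:135895394-135920207, plus strand), the receptor best known from immune cells, had 0.480, 0.528 and 0.889 FPKM in labelled HIF2A cKO and 0.657, 0.569 and 0.614 FPKM in WT at estrus, and at diestrus ran from 0.259 to 0.531 FPKM in labelled HIF2A cKO and from 0.291 to 0.376 FPKM in WT.

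Both receptors were below the filter, so they have no place in the main comparisons. Fitted with no filter, Cnr1 was higher at estrus by 0.21 in WT (limma adjusted p = 0.00654) and by 0.09 in labelled HIF2A cKO (0.201). In the same fit Cnr2 was higher at estrus by 0.26 in WT (limma adjusted p = 0.0250) and by 0.24 in labelled HIF2A cKO (0.0302). No genotype difference of either receptor was called in that fit. B cell markers moved the same way as Cnr2: the sum of 4 of them ran from 3.94 to 5.11 FPKM in labelled HIF2A cKO and 3.32 to 3.94 FPKM in WT at estrus, and from 1.61 to 4.08 FPKM in labelled HIF2A cKO and 1.16 to 2.56 FPKM in WT at diestrus, and their part in the result was not tested.

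Ratios taken within a library set synthesis beside breakdown and 1 synthetic route beside the other. They contain the values on which Napepld was picked and are a description. The Napepld to Faah ratio was 0.796 ± 0.0911 in labelled HIF2A cKO and 1.35 ± 0.146 in WT at estrus (SD, n = 3 each), with no overlap. At diestrus it was 1.23 ± 0.393 in labelled HIF2A cKO and 1.60 ± 0.297 in WT (SD, n = 4 each), with overlap. Abhd4 exceeded Napepld 20.04-fold ± 2.21 in labelled HIF2A cKO and 8.36-fold ± 1.26 in WT at estrus, but 5.25-fold ± 1.29 in labelled HIF2A cKO and 4.82-fold ± 1.07 in WT at diestrus. The Dagla to Mgll ratio had group means between 0.194 and 0.244, with all 4 groups overlapping.

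**Figure D3:**
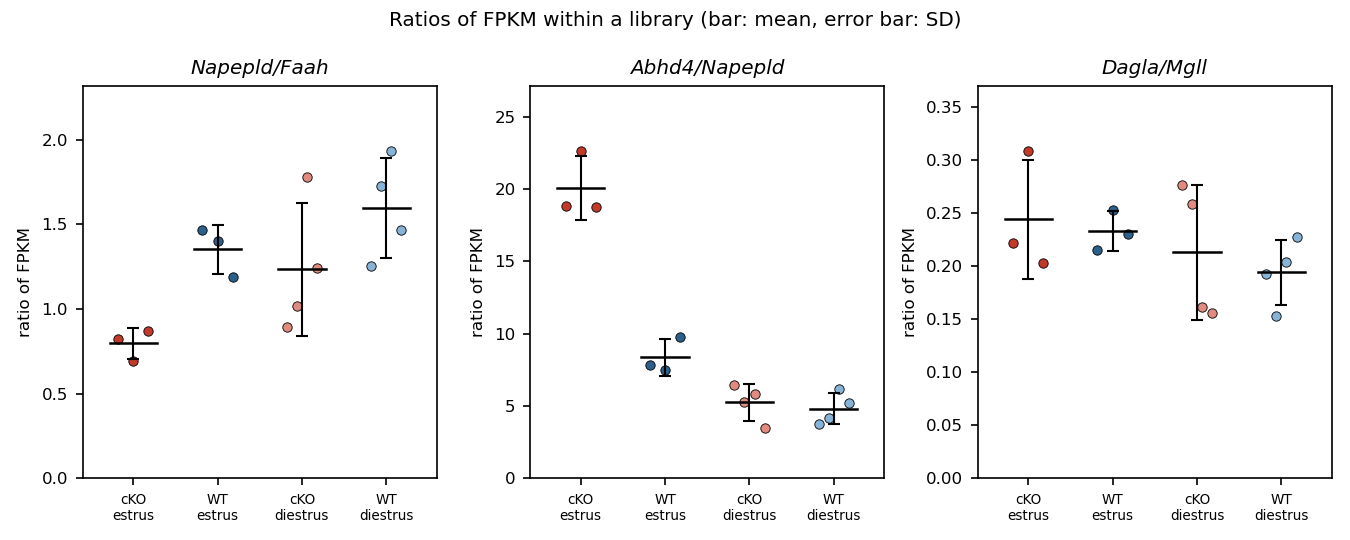
Ratios of FPKM within each library for 3 gene pairs, on linear axes from 0, with 1 point per library, the group mean as a line and the SD as a bar (n = 3 at estrus, n = 4 at diestrus). The 3 labelled HIF2A cKO estrus libraries have Napepld to Faah ratios of 0.695 to 0.872, below the 1.19 to 1.47 of WT estrus, and Abhd4 to Napepld ratios of 18.7 to 22.6.

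The median log2 difference of the 8 genes lay close to that of all genes tested in the genotype comparisons: 0.03 against 0.01 at estrus and -0.02 against 0.02 at diestrus for labelled HIF2A cKO minus WT. For estrus minus diestrus it was 0.01 in labelled HIF2A cKO and 0.12 in WT, against -0.08 and -0.09 over all genes. Apart from genotype at diestrus, these medians of the 8 genes include the estrus values on which Napepld was picked. They are a description with no test. Of the 7 genes tested in these cycle comparisons, 3 were called in labelled HIF2A cKO and 2 in WT, a smaller share than the background in each.

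Around the set stand other genes of endocannabinoid metabolism: further phosphodiesterases and hydrolases, oxidising enzymes, fatty acid carriers and further receptors. Of 42 such genes listed, 39 were found and 29 passed the filter. Estrus minus diestrus called 16 of the 29 in labelled HIF2A cKO (11 higher, 5 lower) and 13 in WT (11 higher, 2 lower), beside the 62.0% and 57.2% over all genes. Labelled HIF2A cKO minus WT called 7 of the 29 at diestrus (4 higher, 3 lower), beside 23.9% over all genes, and 0 at estrus. The 7 were 0 with the diestrus libraries alone and 11 with the replicate number as a block.

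Gdpd1 and Gdpd3, which encode phosphodiesterases able to release N-acylethanolamines from lyso-precursors of the kind Abhd4 produces, rose at estrus as Abhd4 did. Gdpd1 had 21.3, 23.1 and 22.4 FPKM at estrus and 5.37, 5.32, 4.20 and 5.07 FPKM at diestrus in labelled HIF2A cKO, a limma log2 difference of 1.96 (adjusted p = 1.19e-06). In WT it had 20.6, 21.2 and 22.3 FPKM at estrus and 8.07, 4.49, 4.34 and 7.71 FPKM at diestrus, a difference of 1.69 (limma adjusted p = 6.52e-06). The stages lay far apart in both genotypes.

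Gdpd3 averaged 174 ± 5.02 FPKM at estrus and 46.0 ± 9.16 FPKM at diestrus in labelled HIF2A cKO (SD, n = 3 and 4), and 171 ± 7.33 FPKM at estrus and 66.5 ± 18.5 FPKM at diestrus in WT. The limma log2 differences were 1.92 (adjusted p = 5.77e-06) and 1.40 (0.000107). Of the 7 epithelial markers, 4 were called higher and 1 lower at estrus in labelled HIF2A cKO, and 6 higher and 1 lower in WT. Over all genes tested, 62.0% were called in labelled HIF2A cKO and 57.2% in WT. At estrus 2 of 3 macrophage and 3 of 4 mast cell markers were called higher in each genotype, and 3 of 5 myometrial markers lower. Of the 5 stromal markers, 3 were called lower and 1 higher in labelled HIF2A cKO, and 4 lower in WT. Markers of further cell types were called too. Mrc1, the remaining macrophage marker, was not called (0.24 averaged over the genotypes, limma adjusted p = 0.143). The macrophage marker Csf1r was higher by 1.67 in labelled HIF2A cKO (limma adjusted p = 3.98e-07) and 1.09 in WT (1.89e-05), and Cd68 by 1.69 (2.72e-05) and 0.88 (0.00417). The summed macrophage markers ran from 122 to 132 FPKM in labelled HIF2A cKO and 104 to 108 FPKM in WT at estrus, and from 41.7 to 50.4 FPKM in labelled HIF2A cKO and 45.4 to 69.0 FPKM in WT at diestrus. The part of any of these cell types in the cycle changes of Abhd4, Gdpd1 and Gdpd3 was not tested.

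Ces1d, a carboxylesterase of the family whose human member CES1 can hydrolyse 2-arachidonoylglycerol, rose at estrus and was lower in labelled HIF2A cKO at diestrus. It had 78.9, 77.8 and 86.4 FPKM in labelled HIF2A cKO and 75.9, 93.5 and 93.4 FPKM in WT at estrus. At diestrus it had 10.7, 8.26, 11.0 and 17.1 FPKM in labelled HIF2A cKO and 54.8, 33.1, 10.8 and 41.2 FPKM in WT, so that 1 WT library, replicate 3, lay within the labelled HIF2A cKO values. The limma log2 difference at diestrus was -1.33 (adjusted p = 0.0232). That call was lost with the diestrus libraries alone (0.102), with the block in those libraries (0.0591), and without WT diestrus replicate 1 (0.0650), WT diestrus replicate 4 (0.0645), HIF2A cKO diestrus replicate 1 (0.0607) or HIF2A cKO diestrus replicate 2 (0.0793). The estrus minus diestrus difference was 2.73 in labelled HIF2A cKO (limma adjusted p = 7.48e-05). In WT the estrus mean was 2.505 times the diestrus mean (0.00647).

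Naaa, a lysosomal amidase of N-acylethanolamines, was higher in labelled HIF2A cKO at diestrus. It had 28.8, 27.6, 21.9 and 19.5 FPKM in labelled HIF2A cKO, against 13.7, 16.9, 19.5 and 13.1 FPKM in WT, and the groups met at 19.5 FPKM. The limma log2 difference was 0.60 (adjusted p = 0.01002). Alox12e, a lipoxygenase of mouse epithelia, had 26.6, 20.8, 47.7 and 21.2 FPKM in labelled HIF2A cKO at diestrus, against 69.2, 51.8, 73.9 and 44.9 FPKM in WT. It was lower there by a limma log2 difference of -1.07 (adjusted p = 0.00878), with overlap through HIF2A cKO diestrus replicate 3, without which the difference was -1.33 (0.000358). With the diestrus libraries alone the adjusted p was 0.0649 for Naaa and 0.0587 for Alox12e.

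**Figure D4:**
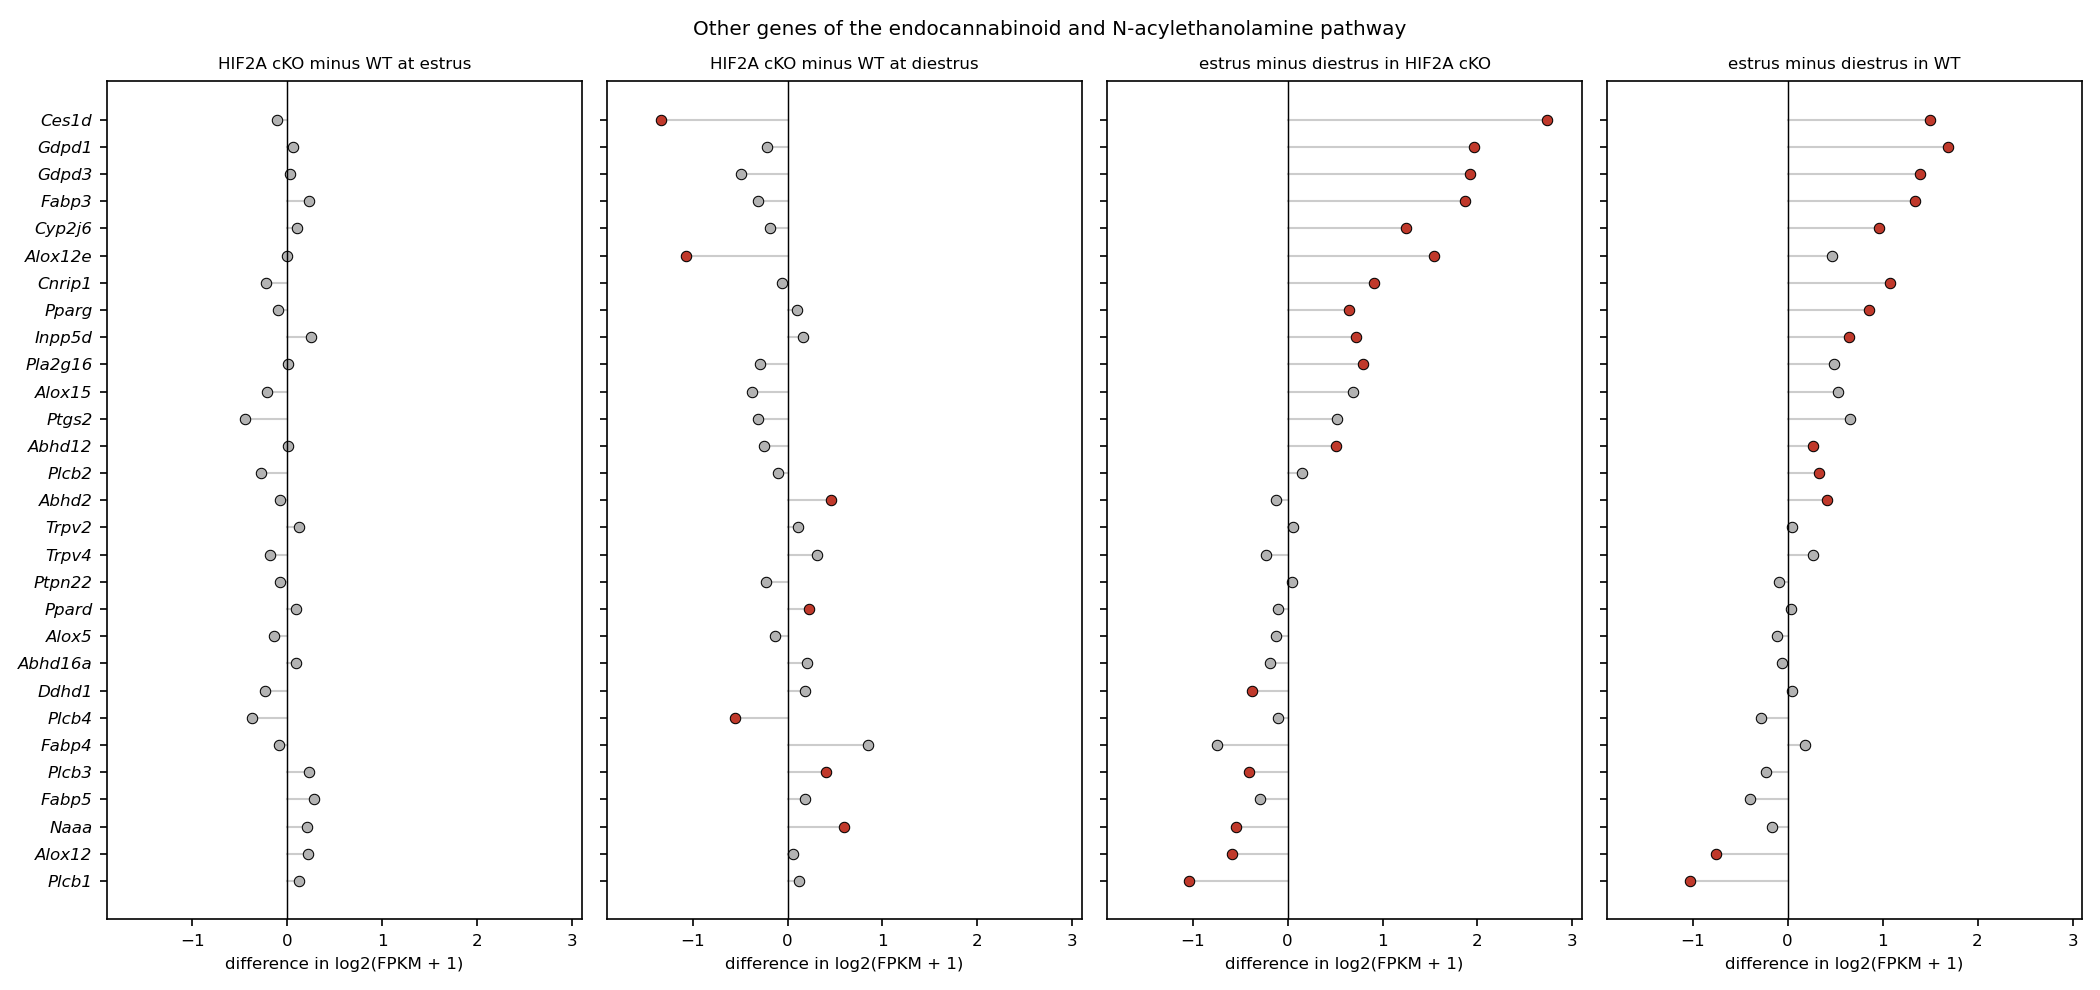
Differences in log2(FPKM + 1) of the 29 further endocannabinoid genes that passed the filter, 1 point per gene joined to 0 by a line, in 4 comparisons. Red marks an adjusted p under 0.05 and grey one that is not. In the cycle comparisons 16 of 29 are red in HIF2A cKO and 13 in WT, with Ces1d, Gdpd1 and Gdpd3 farthest right, and none is red for HIF2A cKO minus WT at estrus.

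Among 13578 genes compared, those whose values over the 14 libraries were most like Napepld were Abcc3, Kctd14, Lurap1l, Clmn and Enc1. Likeness was the root mean square difference of log2(FPKM + 1) after centring each gene on its own mean, and it ran from 0.171 for Abcc3 to 0.220 for Enc1, beside 0.386 for Napepld against a flat line. Abcc3, which encodes a transporter of organic anions, averaged 4.31 ± 0.951 FPKM in labelled HIF2A cKO and 7.75 ± 1.41 FPKM in WT at estrus, and 5.50 ± 0.635 FPKM in labelled HIF2A cKO and 7.66 ± 2.33 FPKM in WT at diestrus. Kctd14 averaged 7.63 ± 1.00 FPKM in labelled HIF2A cKO and 16.4 ± 2.14 FPKM in WT at estrus. These genes were chosen for their likeness over the same libraries, so their values describe the pattern and test nothing.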

How the data were processed

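RNA was sequenced from whole uteri in 14 libraries, which were placed in 4 groups from their labels. No label says that libraries of a group came from separate mice, so a p-value here reflects the spread among the libraries at hand, part of which may be technical. The authors deposited 1 table of FPKM values. TopHat2 2.0.4, Cufflinks 2.0.2 and build mm10 are named per the submitters' processing notes, while annotation, options and scaling are not given in the sources. Read numbers are unknown, so no counting error can be stated, and precision is poorest at low values. Ratios of low values between libraries had a clear peak in 29 of 91 pairs, at up to 1.70-fold. The peaks of different pairs cannot all come from 1 set of depths, so the range of depths is unknown.

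limma 3.58.1 (R 4.3.3) was fitted to log2(FPKM + 1) of the 14 libraries together, with group means, a trended variance and Benjamini-Hochberg adjustment at 0.05. The fit was tested on simulated data. Genes needed at least 1 FPKM in at least 3 libraries (14278 genes). A further 11 genes that were 0 throughout a group yet averaged 50 FPKM or more elsewhere were left out, since an exact 0 can be a failed estimate. Intervals cover 95%. The 10 members of the set, the gene lists and tests were chosen with earlier results of these data known. All 10 members are named, as are the 3 further endocannabinoid genes with the largest called difference in each comparison, the 5 genes most like Napepld, and Epas1. Napepld averaged over the genotypes was planned as a test and is given as a description, since it includes the estrus values. Foxa2 and the marker lists shown beside results were picked from the lists after their values were seen.

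At diestrus, deviations from the group means correlated between same-numbered HIF2A cKO and WT libraries at 0.321, 0.115, 0.622 and 0.217. Differently numbered libraries were not compared, so whether the replicate numbers pair the diestrus libraries was not tested, and the main fit used no block. At estrus same-numbered libraries correlated at 0.0805, 0.0958 and -0.0475, which gives no sign of pairing. Coordinates are 1-based, from GENCODE M21 on mm10, and promoter windows from RefSeq on GRCm38.p6.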

Additional observations from a re-analysis of the deposited data

Results flagged for a closer look

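Among 32 sets of 4 diestrus values, 3 held 1 library far from the other 3. A chance rate of about 1 set in 20 would hold for independent sets, but these sets share the same diestrus libraries. Faah was lowest in HIF2A cKO diestrus replicate 3 at 4.239 FPKM, with the other 3 libraries of the group between 6.27 and 6.51 FPKM. Cnr2 was lowest in WT diestrus replicate 2 at 0.291 FPKM, with the other 3 between 0.366 and 0.376 FPKM. Epas1 was highest in WT diestrus replicate 3 at 43.512 FPKM, with the other 3 between 31.2 and 32.7 FPKM. Without that library the Epas1 difference, labelled HIF2A cKO minus WT at diestrus, was 0.29 on the log2 scale (limma adjusted p = 0.0391), against 0.18 (0.227) with it.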

How the results depend on the processing

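Over 29 alternatives no called log2 difference of a named gene changed its sign. The cycle calls of Abhd4 held in all of them, with log2 differences of 1.59 to 1.82 in HIF2A cKO and 1.03 to 1.22 in WT. Without read numbers, differences among the receptors cannot be set against counting error. The 2 alternatives that leave out the libraries with the most Rn45s (ribosomal RNA precursor) signal, or both diestrus libraries numbered 3, were chosen after seeing the data. The causes of the shifts below were not tested.

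Genotype at diestrus called 3410 genes, but 7885 with library weights, 401 with the diestrus libraries alone, 2034 with those libraries and the replicate block, and 1473 to 5013 with 1 library left out. Of the 10 endocannabinoid genes, the members, those called there were 1, but 0 with no filter, with those libraries alone or with the block in them, 2 with quantile normalization, with the replicate block in all libraries or without the libraries numbered 3, 5 with library weights, and 0 to 3 with 1 library left out. Further pathway genes called were 7, but 13 with library weights, 0 with those libraries alone, 11 with the block in all libraries, and 4 to 9 with 1 left out.

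Genotype at estrus called 15 genes (10 higher, 5 lower; 1053 at an unadjusted p under 0.05), but 7 with a pseudocount of 0.1, 26 with no filter, 0 with a minimum of 5 FPKM, 23 with quantile normalization (13 higher, 10 lower), 1331 with library weights, 332 with the estrus libraries alone, 138 with the block in them, 1 without the Rn45s libraries, 63 without those numbered 3, and 0 to 29 with 1 library left out. Members called were 0 throughout, and pathway genes 0 but 4 with library weights.

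The difference between the genotypes in the cycle change called 5 genes, but 8 with a pseudocount of 0.1 or 0.5, 11 with no filter or without the Rn45s libraries, 10 with quantile normalization, 5225 with library weights, 462 with the replicate block, 12 with the genes listed at 0 kept, 1204 without those numbered 3, and 0 to 1181 with 1 library left out. Members were 0, but 2 with library weights and 0 to 1 with 1 left out. Pathway genes were 0, but 13 with library weights, 1 with the block, 3 without those numbered 3, and 0 to 3 with 1 left out.

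The cycle called 8852 genes in HIF2A cKO (7851 to 9052 with 1 library left out), 8161 in WT (6959 to 8574) and 10154 averaged (9598 to 10324). Members called in HIF2A cKO were 3, but 1 with no filter or without the Rn45s libraries, and 1 to 3 with 1 left out. In WT they were 2, but 1 with the replicate block, under which Mgll had an adjusted p of 0.0586 in limma, and 1 to 3 with 1 left out. Averaged they were 4, but 2 with the block, without the Rn45s libraries or without those numbered 3, and 2 to 4 with 1 left out. Pathway genes were 16 in HIF2A cKO (16 to 18), 13 in WT (11 to 14) and 18 averaged (16 to 19). The averaged Daglb call was lost in 14 of 27 alternatives and that of Faah in 5. Same-numbered libraries of different stages correlated between -0.135 and 0.018, which gives no sign of pairing by number in the cycle comparisons.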

Other observations

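Some further genes of endocannabinoid metabolism changed with the cycle, and those named here were chosen after their values were seen. Cnrip1, which encodes a protein that binds the tail of the Cnr1 receptor, averaged 30.4 FPKM at estrus and 15.7 FPKM at diestrus in labelled HIF2A cKO, and 35.6 FPKM at estrus and 16.5 FPKM at diestrus in WT. The limma log2 differences were 0.91 (adjusted p = 7.95e-06) and 1.08 (3.96e-06), while Cnr1 itself stayed under 0.3 FPKM. Fabp3, a fatty acid carrier that can bind anandamide, averaged 19.998 FPKM at estrus and 4.97 FPKM at diestrus in labelled HIF2A cKO, and 17.0 FPKM at estrus and 6.42 FPKM at diestrus in WT (limma log2 differences 1.87 and 1.34). Plcb1, a phospholipase C of the kind that yields the diacylglycerol used by Dagla and Daglb, averaged 1.40 FPKM at estrus and 3.92 FPKM at diestrus in labelled HIF2A cKO, and 1.21 FPKM at estrus and 3.54 FPKM at diestrus in WT (-1.03 in each).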
